A study of Mus musculus with 10 samples.

Results

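The gap junction connexins described here are 8 genes, *Gja1*, *Gja4*, *Gja5*, *Gjb1*, *Gjb2*, *Gjb5*, *Gjb6* and *Gjc1*, chosen by name among the 29268 genes of a uterine RNA-seq table that lists 16 connexin genes in all. Uteri of 5 HSD17B1TG and 5 WT female mice were sequenced at the age of 4 months, 1 library per mouse. HSD17B1TG mice are FVB/N animals of a heterozygous line in which a CMV-enhanced chicken beta actin promoter drives human HSD17B1 cDNA in all tissues, and HSD17B1 is the enzyme that converts estrone to estradiol. WT mice carry no transgene, and neither group received a treatment that the labels name. The study's methods state, for its histology, that HSD17B1TG mice do not cycle and that WT uteri came from random phases of the cycle, so genotype and cycle phase cannot be told apart. Mice are numbered within each group by rising animal number, as TG1 to TG5 or WT1 to WT5.

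Connexins are membrane proteins with 4 transmembrane segments, of which a ring in each of the neighbouring cells forms a channel that lets ions and small molecules pass from cell to cell. In the uterus, *Gja1* (connexin 43) couples the smooth muscle cells of the myometrium, above all near labour, and also the stromal cells of the endometrium as they decidualise. *Gjb2* (connexin 26) is the estrogen-responsive connexin of the luminal epithelium in rodents, and *Gja4* and *Gja5* (connexins 37 and 40) couple endothelial cells, chiefly of arteries.

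In these uteri no connexin passed the thresholds of the genotype comparison in edgeR. *Gjb2* had the largest difference of the 8, with a mean of 153 ± 81.0 FPKM (fragments per kilobase of transcript scaled to library size, SD, n = 5) in the HSD17B1TG uteri, against 32.9 ± 33.4 in WT uteri, and an adjusted p-value of 0.161 in edgeR's quasi-likelihood test. *Gja1*, *Gja4* and *Gjc1* had lower means in HSD17B1TG than in WT, and *Gja5*, *Gjb1* and *Gjb5* had higher means, each with groups that overlapped. *Gjb6* ranged from 0 to 19.9 FPKM within WT.

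The coding sequences shown are those of *Gjb2* and *Gjb6*, which lie near each other on chromosome 14 and had the highest identity of the 8 genes. Their coding sequences, of 681 and 786 bases, were identical at 76.2% of aligned bases, against 60.7% to 70.0% for the other pairs, and their longest identical run was 20 bases. The window around that run, coding bases 184 to 263, is shown for both genes, with the run in capitals. It lies on the reverse strand of GRCm38 at chr14:57100487-57100566 in *Gjb2* and chr14:57124540-57124619 in *Gjb6*, in an exon.
Gjb2: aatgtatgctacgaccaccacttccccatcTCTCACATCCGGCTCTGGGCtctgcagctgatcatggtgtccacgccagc
Gjb6: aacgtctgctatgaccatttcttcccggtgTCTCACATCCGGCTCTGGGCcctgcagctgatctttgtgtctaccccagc
The longest identical run in any pair of the 8 coding sequences was 26 bases, in *Gja1* and *Gja4*, while the reads were 150 bp long.

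The 250 bases before the transcription start of *Gjb2*, *Gjb6* and *Gja1* are shown because *Gjb2* and *Gja1* were the most abundant connexins and because *Gjb6* lies near *Gjb2*. They are from RefSeq on GRCm38.p6, at chr14:57104703-57104952 (reverse strand), chr14:57133612-57133861 (reverse strand) and chr10:56377050-56377299 (forward strand). Capitals mark matches to the motifs searched.
Gjb2: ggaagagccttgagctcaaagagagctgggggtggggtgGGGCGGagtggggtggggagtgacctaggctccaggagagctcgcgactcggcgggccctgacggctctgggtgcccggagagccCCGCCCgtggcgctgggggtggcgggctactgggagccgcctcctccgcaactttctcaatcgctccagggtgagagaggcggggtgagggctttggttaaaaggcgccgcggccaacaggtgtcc
Gjb6: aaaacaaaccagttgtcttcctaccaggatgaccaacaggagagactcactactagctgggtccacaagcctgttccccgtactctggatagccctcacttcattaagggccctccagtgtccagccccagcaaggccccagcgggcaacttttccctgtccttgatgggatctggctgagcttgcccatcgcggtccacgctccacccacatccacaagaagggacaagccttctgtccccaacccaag
Gja1: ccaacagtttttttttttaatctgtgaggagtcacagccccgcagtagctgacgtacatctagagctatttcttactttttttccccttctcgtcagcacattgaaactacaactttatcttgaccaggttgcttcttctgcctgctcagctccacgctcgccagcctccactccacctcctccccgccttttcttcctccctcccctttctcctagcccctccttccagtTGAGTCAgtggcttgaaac
The table of promoters held 7 of the 8 genes (not *Gjc1*) with 10 windows, each from 250 bases before to 50 after a start, and 4 motifs were searched on both strands. These were the GC box (GGGCGG), the AP-1 site (TGANTCA), the TATA box (TATAAA) and the estrogen response element (GGTCA, any 3 bases, TGACC). Matches of different motifs did not overlap. *Gjb2* had 2 GC boxes, starting at -211 and -126 from the start (GC content 69.2% over the 250 bases), while *Gjb6* had no match (56.8%). *Gja1* had 1 AP-1 site, at -19. Over all 32851 windows of the table, 35.7% held a GC box, 7.81% an AP-1 site, 13.6% a TATA box and 0.07% an estrogen response element, and none of the 10 connexin windows held the last. A match is a run of letters, and binding was not measured.

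Total counts on genes were 16544864 to 19451715 in HSD17B1TG and 14817228 to 23271988 in WT, and mitochondrial genes took 1.94% to 7.57% and 2.58% to 3.37% of them. Markers of the uterine compartments were present, with no gene of the epithelial, stromal, smooth muscle or endothelial list at 0 in any mouse. The number of genes called in the whole table depended on single mice, and 9 of the 10 mice moved one or both of these counts by over 1.5 times when left out. It was highest without WT4, at 888 up and 666 down, against 367 and 354 with all mice, and lowest without TG5, at 38 and 27. Each connexin's fold change is also given without WT4, a choice made on these counts that need not give a typical value. The mouse gene *Hsd17b1* had 17 to 33 counts in HSD17B1TG and 15 to 36 in WT, which is no check of the human transgene.

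Of the 16993 genes tested, 2.16% were called up and 2.08% down (adjusted p-value under 0.05, fold change over 2 and mean FPKM over 1 in either group). All 8 connexins passed the filter on low counts, and 0 were called in either direction by edgeR. At an unadjusted p-value under 0.05 there was 1 of 8 higher, *Gjb2*, where 14.7% of all genes were, and 0 of 8 lower, where 11.4% were. The FPKM of the groups did not overlap for 0 of 8 connexins, against 6.69% of all genes. The 8 fold changes split into 4 higher and 4 lower, with a median log2 fold change of 0.06, and the median of all genes tested was 0.00. Of the other tools, DESeq2 called 0 with its default filtering limma on log2(FPKM + 1) called 0, and limma's voom with quality weights called 1, *Gjb2* (log2 fold change 3.38, adjusted p = 0.0306).

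**Figure D1:**
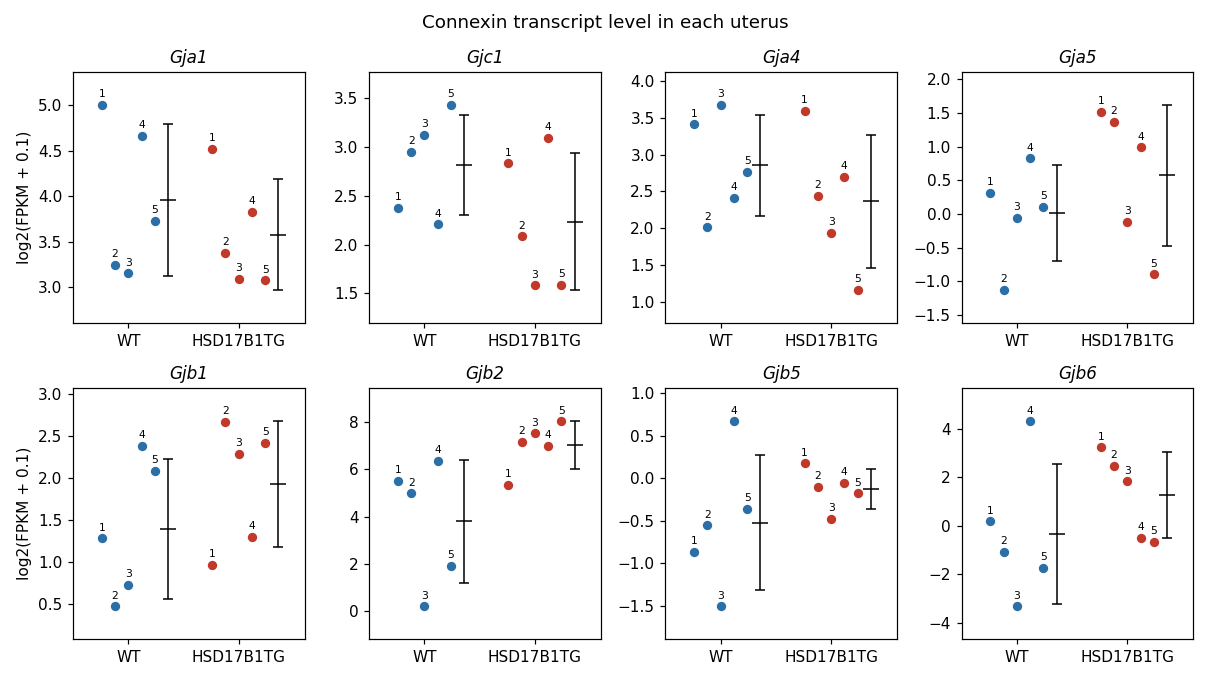
Transcript level of each connexin on a log2(FPKM + 0.1) scale (y axis, different range in each panel) in WT (blue) and HSD17B1TG (red) uteri. Each point is 1 mouse with its number, and bars show the mean and SD of the log2 values over the 5 mice. For *Gjb2*, 4 of 5 HSD17B1TG mice lie above all WT mice, and the points of the other 7 connexins are more mixed.

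Among the epithelial connexins, *Gjb2* was at 40.8, 145, 185, 129 and 262 FPKM in TG1 to TG5. The WT mice were, in order, at 45.6, 31.7, 1.06, 82.3 and 3.71 FPKM. All HSD17B1TG mice but TG1 were above every WT mouse, and TG1 lay between WT2 and WT1. The WT mice spanned 77.9-fold from WT3 to WT4, and the HSD17B1TG mice 6.44-fold. In edgeR the log2 fold change was 2.22 (SE 0.93, 95% interval 0.17 to 4.27). On log2(FPKM + 0.1) the means differed by 3.22 (two-sided exact permutation test, p = 0.0238, adjusted over the 8 genes 0.19), where the smallest p the design allows is 0.00794. Without WT4 the log2 fold change was 2.89 (adjusted p = 0.0785, edgeR), the highest with a mouse left out. The lowest was 1.88, without WT3 (edgeR adjusted p = 0.193). *Gjb2* (ENSMUSG00000046352) lies on chromosome 14 from 57098600 to 57104702 on the reverse strand.

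*Gjb6* (connexin 30, best known from skin and the cochlea, ENSMUSG00000040055) lies on chromosome 14 from 57123303 to 57133611 on the reverse strand, 18600 bases from *Gjb2* with 1 gene between them. It was at 9.43, 5.50, 3.48, 0.603 and 0.529 FPKM in TG1 to TG5. Levels in WT1 to WT5 were 1.03, 0.374, 0, 19.9 and 0.201 FPKM. WT4 was above all other mice of both groups with 1098 counts, while WT3 had 0 of 14817228 counts, which allows a level of up to 0.2025 CPM by counting error alone. Among the HSD17B1TG mice, TG1 was the highest for *Gjb6* and the lowest for the nearby *Gjb2*, and TG5 was the reverse. Its log2 fold change was -0.13 (SE 1.41, 95% interval -3.23 to 2.97, edgeR adjusted p = 0.964) and 3.24 without WT4 (adjusted p = 0.0874), and its sign also changed without TG4 or without TG5 (0.14 and 0.15). On the log2(FPKM + 0.1) scale, with all mice, the mean was 1.61 higher in HSD17B1TG (two-sided exact permutation test, p = 0.317). With each mouse left out this difference lay between 0.86 (without WT3) and 2.77 (without WT4).

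*Gjb1* (connexin 32, the main connexin of hepatocytes and of other simple epithelia) had 4.09 ± 1.89 FPKM in HSD17B1TG and 2.89 ± 1.67 in WT. TG1 to TG5 were at 1.85, 6.23, 4.76, 2.36 and 5.23 FPKM. WT1 to WT5 were at 2.34, 1.295, 1.56, 5.11 and 4.15 FPKM. TG2 and TG5 were above all WT mice and WT2 and WT3 below all HSD17B1TG mice, with the rest mixed. This was a log2 fold change of 0.50 (SE 0.46, 95% interval -0.52 to 1.52, edgeR adjusted p = 0.534), and 0.80 without WT4 (adjusted p = 0.2835). The value without WT4 was the highest with a mouse left out, and the lowest was 0.29, without WT2. *Gjb1* (ENSMUSG00000047797) lies on chromosome X from 101376378 to 101385629 on the forward strand.

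*Gjb5* (a connexin of stratified epithelia and of the trophoblast) had the lowest mean in both groups, at 0.618 to 1.03 FPKM in HSD17B1TG and 0.252 to 1.49 in WT. Only 7 to 53 counts per mouse stood behind these values. WT4 was the highest and WT3 the lowest mouse, and all HSD17B1TG mice lay between them. The log2 fold change was 0.25 (SE 0.43, 95% interval -0.71 to 1.21, edgeR adjusted p = 0.759). It was 0.74 without WT4 (adjusted p = 0.2098) and 0.02 without WT3 (adjusted p = 0.985), the extremes with each mouse left out, and 0.10 without WT1. The gene (ENSMUSG00000042357, chromosome 4 from 127354809 to 127358181) lies on the reverse strand. WT3 was the lowest of the 10 mice for *Gjb2*, *Gjb5* and *Gjb6* alike.

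Of the connexins of muscle and stroma, *Gja1* (ENSMUSG00000050953, chromosome 10 from 56377330 to 56402513, forward strand) was at 22.9, 10.3, 8.44, 14.1 and 8.34 FPKM in TG1 to TG5. The levels in WT1 to WT5 were 32.0, 9.41, 8.80, 25.35 and 13.2 FPKM. WT1 and WT4 were above all HSD17B1TG mice, and the other 3 WT mice lay within their range. The means were 12.8 ± 6.09 and 17.7 ± 10.4 FPKM (SD, n = 5), with a log2 fold change of -0.47 (SE 0.41, 95% interval -1.38 to 0.44, edgeR adjusted p = 0.511), and -0.31 without WT4 (adjusted p = 0.6855). With each mouse left out it lay between -0.78 (without TG1) and -0.18 (without WT1). Counts of 1332 to 8064 per mouse stood behind these values, so counting error was small beside the spread between mice.

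*Gjc1* (connexin 45, a connexin of smooth muscle and of the cardiac conduction system) was at 7.01, 4.15, 2.90, 8.44 and 2.90 FPKM in TG1 to TG5. WT1 to WT5 were at 5.09, 7.64, 8.63, 4.52 and 10.7 FPKM. TG2, TG3 and TG5 were below all WT mice, while WT3 and WT5 were above all HSD17B1TG mice. Its log2 fold change was -0.53 (SE 0.36, 95% interval -1.32 to 0.25, edgeR adjusted p = 0.376), and -0.66 without WT4 (adjusted p = 0.2502). With each mouse left out the fold change lay between -0.79 (without TG4) and -0.37 (without WT5). *Gjc1* (ENSMUSG00000034520) lies on chromosome 11 from 102799579 to 102819700 on the reverse strand. It varied least over WT, 2.36-fold from the lowest to the highest mouse.

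Among the connexins of vessels, *Gja4* (ENSMUSG00000050234, chromosome 4 from 127311421 to 127314039, reverse strand) was at 12.0, 5.32, 3.72, 6.40 and 2.14 FPKM in TG1 to TG5. WT1 to WT5 had levels of 10.5, 3.94, 12.7, 5.23 and 6.72 FPKM. The groups overlapped, with TG3 and TG5 below all WT mice and WT3 above all HSD17B1TG mice. For *Gja4* the log2 fold change was -0.41 (SE 0.46, 95% interval -1.43 to 0.61, edgeR adjusted p = 0.618), and -0.52 without WT4 (adjusted p = 0.5185). It lay between -0.83 (without TG1) and -0.19 (without WT3) with each mouse left out.

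*Gja5* (ENSMUSG00000057123, chromosome 3 from 96904693 to 97077416, forward strand) was at 2.77, 2.49, 0.823, 1.89 and 0.436 FPKM in TG1 to TG5. The 5 WT mice were, in order, at 1.15, 0.357, 0.863, 1.68 and 0.977 FPKM. TG1, TG2 and TG4 were above all WT mice, and TG3 and TG5 were within the WT range. The log2 fold change was 0.74 (SE 0.52, 95% interval -0.41 to 1.90, edgeR adjusted p = 0.401), and 1.004 without WT4 (adjusted p = 0.2551). With each mouse left out the fold change of *Gja5* lay between 0.49 (without TG1) and this value. Its annotated span overlaps annotated genes of the opposite strand, among them *Gpr89*, and since the strand setting of the counting is not given in the sources used here, reads in the shared stretches cannot be assigned with certainty. The other 7 connexins overlap no annotated gene.

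**Figure D2:**
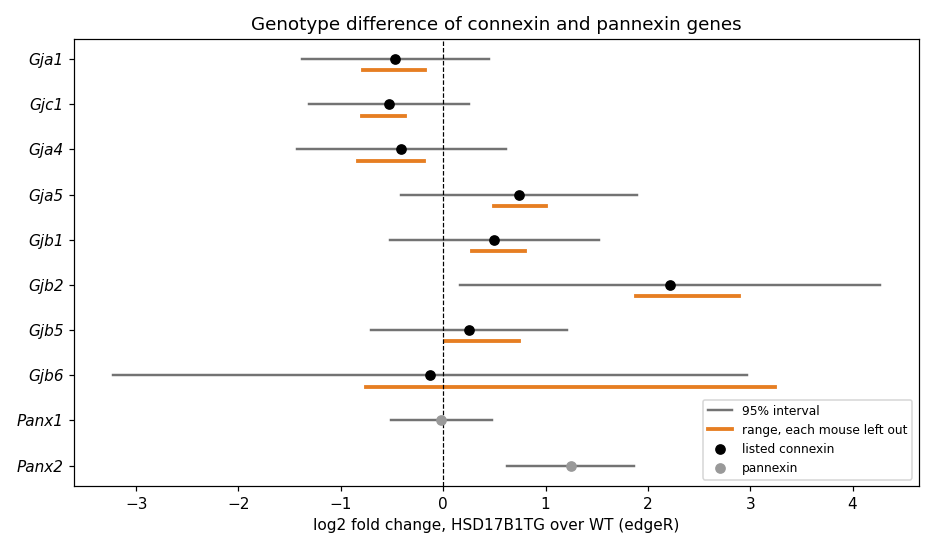
Log2 fold change of HSD17B1TG over WT from edgeR (x axis) for the 8 connexins (black points) and for 2 pannexins (grey points), 1 gene per line. Grey lines are 95% intervals and orange lines the range of the fold change when each mouse is left out in turn. The interval of *Gjb2* begins at 0.17, the orange line of *Gjb6* crosses 0, and the interval of *Panx2* (0.62 to 1.87) lies above 0.

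The order of the mean FPKM was *Gjb2*, *Gja1*, *Gja4* and *Gjc1* from the top in both groups. FPKM are divided by the gene length given with the counts. This was 10257 bases for *Gja1*, with 8 annotated transcripts, and 2406 bases for *Gjb2*, with 1. In raw counts, *Gja1* was above *Gjb2* in every WT mouse and in TG1, and below it in TG2 to TG5. How far the order rests on these lengths was not tested. In WT the order went on with *Gjb6* (4.30 ± 8.72), *Gjb1*, *Gja5* (1.00 ± 0.477) and *Gjb5* (0.691 ± 0.475). The place of *Gjb6* in WT rested on WT4, since the WT median was 0.374 FPKM, below the medians of the other 7. In HSD17B1TG it went on with *Gjb1*, *Gjb6* (3.91 ± 3.73), *Gja5* (1.68 ± 1.02) and *Gjb5* (0.826 ± 0.148). In WT the ranges of all neighbours in this order overlapped. In HSD17B1TG only the first step did not, since the lowest *Gjb2* level was 40.8 and the highest *Gja1* level 22.9 FPKM.

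The make-up of the connexin transcripts was examined as the share of each gene in the summed FPKM of the 8. The sum was 97.7, 180.2, 210.1, 164 and 283 FPKM in TG1 to TG5. In WT1 to WT5 it was 98.2, 55.3, 33.8, 146 and 40.3 FPKM. Without *Gjb2* it was 20.4 to 57.0 FPKM in HSD17B1TG and 23.6 to 63.3 in WT, ranges that overlapped over most of their length.

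*Gjb2* took 41.7%, 80.7%, 88.2%, 78.8% and 92.8% of the sum in TG1 to TG5. In WT1 to WT5 it took 46.4%, 57.3%, 3.12%, 56.55% and 9.22%. Every HSD17B1TG mouse but TG1 was above all WT mice. The mean shares were 76.4% ± 20.2 and 34.5% ± 26.3 (two-sided exact permutation test, p = 0.0317, adjusted over the 8 genes 0.111). By FPKM, *Gjb2* was first in 8 of 10 mice, while *Gja4* was first in WT3 and *Gja1* in WT5. The shares and this order rest on the gene lengths behind the FPKM.

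The share of *Gja1* was 8.95% ± 8.37 in HSD17B1TG and 25.1% ± 7.73 in the WT mice (two-sided exact permutation test, p = 0.0238, adjusted 0.111). It lay at 23.4% in TG1 and at 2.95% to 8.63% in the other 4 HSD17B1TG mice, against 17.0% to 32.7% in WT. *Gjc1* took 3.41% and 14.8% on average (two-sided exact permutation test, p = 0.0556) and *Gja4* 4.33% and 15.1% (p = 0.0873 in the same exact test). WT3 had the highest *Gja4* share, 37.4%, and without it the difference went from -10.8 to -5.21 percentage points. The shares add up to the whole, so a higher share of 1 gene lowers the others. Among the 7 without *Gjb2*, the share of *Gja1* was 37.1% ± 5.06 in HSD17B1TG and 40.7% ± 12.4 in WT.

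**Figure D3:**
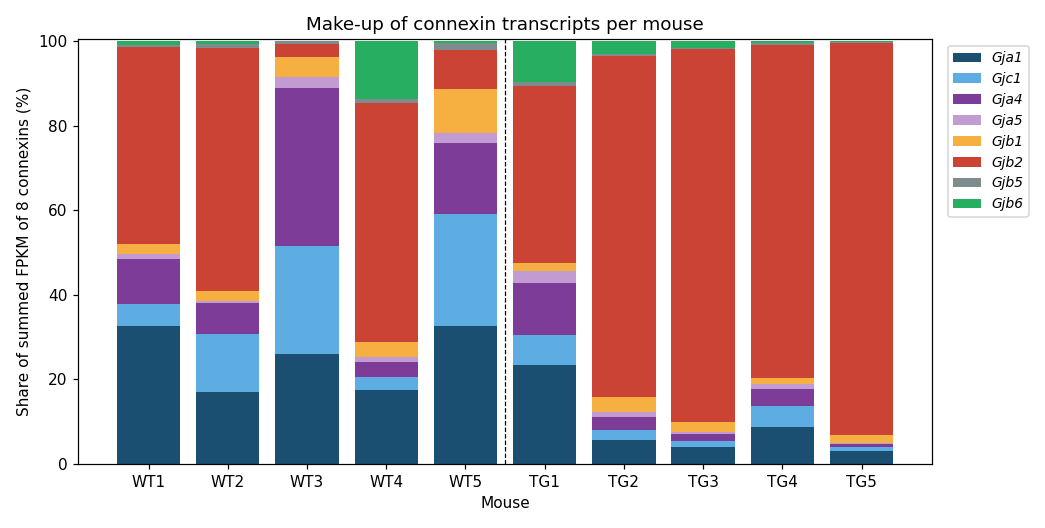
Share of each of the 8 connexins in their summed FPKM (y axis, percent) in each mouse (x axis), WT to the left and HSD17B1TG to the right of the dashed line. *Gjb2* (red) takes 78.8% to 92.8% in TG2 to TG5 and 41.7% in TG1, while WT3 and WT5 have 3.12% and 9.22%.

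Whole uterus holds several cell types, and more cells of a type and more RNA per cell cannot be told apart, so the markers of the compartments are given beside the connexins. All 9 epithelial markers were higher in HSD17B1TG, 7 of them at an unadjusted p-value under 0.05 and none called, with a median log2 fold change of 1.24 and summed levels of 987 to 4589.8 FPKM against 818 to 2133 in WT. Of 9 stromal markers 8 were lower (median -1.18, 540.2 to 2017 against 1649 to 2182 FPKM), and 4 were called down, the receptor gene *Pdgfra* (-1.99) and the transcription factor genes *Hand2* (-1.998), *Hoxa10* (-2.14) and *Hoxa11* (-2.36). Of 9 endothelial markers 8 were lower (median -0.61, 38.8 to 142 against 66.3 to 151 FPKM) and none was called. All 9 smooth muscle markers had higher means in HSD17B1TG (median 0.60, 878 to 7420 against 425 to 5822 FPKM), none at an unadjusted p-value under 0.05. The part of these differences in the connexin levels was not tested beyond the relative levels that follow.

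The level of each connexin was set against the mean of its compartment's 9 markers, as a difference of log2 CPM, in 9 pairs of gene and compartment. *Gjb2* against epithelium was at -0.55, -0.24, -0.07, -0.52 and -0.15 in TG1 to TG5. In WT1 to WT5 it was at -0.9999, -0.9698, -5.27, -0.45 and -3.47. The HSD17B1TG mice were close together (SD 0.216) and the WT mice were not (SD 2.06), with WT3 and WT5 far below the others and WT4 inside the HSD17B1TG range. The means differed by 1.92 (two-sided exact permutation test, p = 0.0238, adjusted over the 9 pairs 0.143). Without WT4 the difference was 2.37 (adjusted exact p = 0.0357), and without WT3 it was 1.17 (adjusted exact p = 0.214).

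*Gja1* was set against smooth muscle and against stroma. Against smooth muscle it was at -2.47 to -1.06 in HSD17B1TG and -1.84 to 0.12 in WT, with WT1, WT2 and WT3 above every HSD17B1TG mouse (difference -1.26, two-sided exact permutation test, p = 0.0476, adjusted 0.143). Without WT4 this difference was -1.55 (adjusted exact p = 0.0536). Against stroma the 5 HSD17B1TG mice were within -1.05 to -0.86 (SD 0.071), while WT1 and WT4 were at -0.49 and -0.68 and the other 3 WT mice at -2.83 to -2.47 (SD 1.11). The means against stroma differed by 0.86 (two-sided exact permutation test, p = 0.167). The sign of the *Gja1* difference thus depended on the markers it was set against.

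*Gja5* against endothelium was at -2.44 to -0.94 in HSD17B1TG and -3.71 to -1.54 in WT mice, with a difference of 1.28 (two-sided exact permutation test, p = 0.0476, adjusted 0.143). The WT mice other than WT4 were below every HSD17B1TG mouse, and without WT4 the difference was 1.63 (adjusted exact p = 0.0476). Without TG2 it was 1.09 (adjusted exact p = 0.2551). *Gja4*, the other endothelial connexin, against endothelium differed by 0.19 between the groups (two-sided exact permutation test, p = 0.452), and by 0.04 without WT5 to 0.33 without WT1. *Gjc1* against smooth muscle differed by -1.47 (two-sided exact permutation test, p = 0.127) and by -2.09 without WT4 (adjusted exact p = 0.0357), but by -0.9982 without WT3 (adjusted exact p = 0.381). *Gjb1*, *Gjb5* and *Gjb6* against epithelium differed by -0.78, -0.89 and 0.61, with exact p-values of 0.135 to 0.722. For *Gjb1* the difference was -0.44 without WT5. With all mice 0 of the 9 pairs passed the adjustment.

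**Figure D4:**
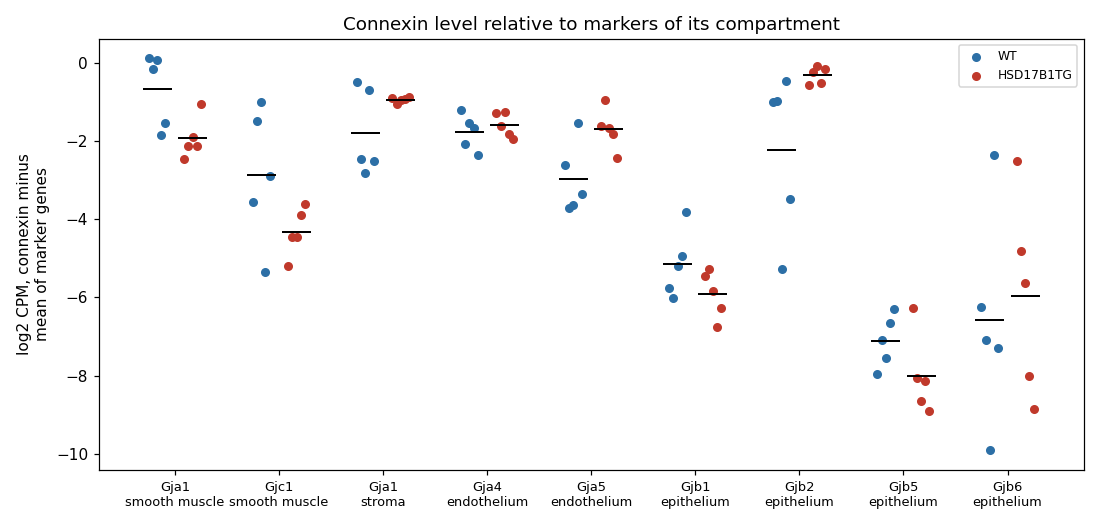
Level of each connexin relative to the markers of its compartment (y axis, log2 CPM of the connexin minus the mean log2 CPM of 9 marker genes) in WT (blue) and HSD17B1TG (red). Each point is 1 mouse and each line a group mean. HSD17B1TG mice are tightly grouped for *Gja1* against stroma (SD 0.071) and for *Gjb2* against epithelium (SD 0.216), where WT mice spread with SDs of 1.11 and 2.06.

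Genes with a like pattern were searched among 14314 protein-coding genes by the mean absolute difference of log2 CPM over the 10 mice, each gene centred on its own mean. Genes chosen in this way have fold changes near that of the connexin by construction. Nearest to *Gjb2* were *Tmem54* (0.37), the epithelial mucin gene *Muc1* (0.39) and the potassium channel gene *Kcnn4* (0.43), with log2 fold changes of 1.97, 2.28 and 2.14. Nearest to *Gja4* were the endothelial transcription factor gene *Sox18* (0.16), the endothelial receptor gene *Tie1* (0.25) and *Wdfy4* (0.26). *Gja1* was nearest to the amino acid transporter gene *Slc43a2* (0.22), the matrix cross-linking enzyme gene *Lox* (0.23) and *Kremen1* (0.27), and *Gjc1* to *Kif3c* (0.13), *Ncs1* (0.14) and *Cmtm3* (0.15).

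For *Gja5* the nearest were *Myrf* (0.32), *1700001O22Rik* (0.33) and *Mcam* (0.33), a gene of mural and endothelial cells. For *Gjb1* they were *Lmo7* (0.22), *Osbpl1a* (0.24) and *Slc39a8* (0.27). *Gjb6* had no gene as close, its nearest being *Nmur2* (0.64), *Gm12248* (0.69) and *Siah3* (0.74). None of these genes was called. Among the 8 connexins themselves the closest pair was *Gja1* and *Gja4* (0.47), and *Gjb2* and *Gjb6*, near each other on chromosome 14, were at 1.63. This was still the lowest value of either gene with another of the 8. The measure grows with the spread of a gene between mice, so values of different pairs are not like for like.

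Pannexins form channels in the membrane of single cells. *Panx2* was higher in every HSD17B1TG mouse than in every WT mouse, at 0.701, 0.687, 0.517, 0.775 and 1.04 FPKM in TG1 to TG5. WT mice were at 0.241 to 0.404 FPKM. The log2 fold change was 1.24 (SE 0.28, edgeR adjusted p = 0.0346), and the gene was not called since both means were under 1 FPKM, with 14 to 58 counts per mouse. *Panx1*, the more abundant, had a log2 fold change of -0.02 (SE 0.22, edgeR adjusted p = 0.969).

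Among 22 genes of connexin partners and of plaque assembly, transport and turnover, 17 had higher and 5 lower mean levels in HSD17B1TG. Of these genes 0 were called up and 1 down, where 2.16% and 2.08% of all genes were. At an unadjusted p-value under 0.05, 8 were higher and 1 lower, where 14.7% and 11.4% of all genes were. The median log2 fold change was 0.44. The gene called down was *Tuba1a*, a tubulin gene, at 61.3 ± 12.9 against 137 ± 22.0 FPKM (log2 fold change -1.17, edgeR adjusted p = 0.0177). Of the higher ones, *Prkcd* and *Src*, kinase genes, had log2 fold changes of 0.75 and 0.83 (edgeR adjusted p = 0.0254 and 0.0364). *Akap9* (0.49, adjusted p = 0.0418) and *Cnst*, whose product consortin takes part in connexin transport (0.83, adjusted p = 0.0485), also passed the adjusted p-value and not the fold change. *Tjp3* (1.99), *Cdh1* (1.20), *Ezr* (1.23) and *Ctnnd1* (0.70), genes of epithelial junctions and of the cell cortex, had edgeR adjusted p-values of 0.0777 to 0.11. *Tjp1*, the scaffold that binds the tail of connexin 43, had a log2 fold change of 0.05.

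Of 11 contraction genes of the myometrium, 7 had higher and 4 lower means, with 0 called. *Cacna1g*, a T-type calcium channel gene, was lower in every HSD17B1TG mouse than in every WT mouse, with 5.42 ± 3.08 against 17.2 ± 7.87 FPKM. Its log2 fold change was -1.67 (SE 0.45, edgeR adjusted p = 0.0531). The receptor gene *Oxtr*, whose transcript rises with *Gja1* near labour, had 47.3 ± 40.4 against 28.0 ± 38.4 FPKM (edgeR adjusted p = 0.692).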

How the data were processed

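RNA-seq of whole uterus was analysed in 5 HSD17B1TG and 5 WT mice, with genotype taken from the labels. The authors mapped paired-end reads of 150 bp with HISAT2 2.0.5 to GRCm38 with Ensembl 94 genes. The authors deposited 1 table with the raw count, FPKM and normalized signal (count divided by a DESeq2 size factor) of each gene in each mouse. The FPKM were scaled by the same size factors. How reads were counted, and whether by strand, is not given in the sources used here. The authors' log2 fold change and p-value columns, a shorter table of called genes and their GO and KEGG tables were not used.

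Differences in counts were tested by edgeR 4.0.16 under R 4.3.3 (filterByExpr, TMM, quasi-likelihood test). P-values were adjusted by Benjamini-Hochberg over 16993 genes, with the thresholds of the study's methods. Levels, shares and relative levels (log2 CPM, prior count 2) of single genes were compared with two-sided exact permutation tests over all assignments of mice to groups. FPKM were tested as log2(FPKM + 0.1), which understates changes of low genes. Intervals are at 95%. A count of 3 corresponds to 0.129 to 0.2025 CPM, and such limits cover counting error only. The fit was tested on simulated counts.

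Named genes were the 8 connexins, tested pannexins, partner and contraction genes called or at an unadjusted p-value under 0.05, called markers, and 3 nearest genes per connexin with mean FPKM over 1. *Tjp1*, *Oxtr* and single marker genes outside this rule were named after their values were seen. Some further connexins are not reported here. Members and lists were chosen with earlier results of these data known. Alternatives were DESeq2 1.42.0, limma 3.58.1, other normalization, filters and pseudocounts, other denominators, and each mouse left out. No batch, litter or date is in the labels, so none was modelled.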

Additional observations from a re-analysis of the deposited data

Results flagged for a closer look

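Each group of 5 mice was searched for a mouse far from the others, by the gap to the nearest mouse as a part of the range (limit 0.71), for the level and the share of each connexin and for its level relative to markers. Of 50 such tests, 6 passed, where chance gives about 1 in 20 for independent values with a normal distribution. FPKM and shares were not put on a log scale, and the tests of 1 gene are not independent, so this rate need not hold here. The level of *Gjb6* in WT4 was 19.9 FPKM, where the other WT mice had at most 1.03. Its share of the 8 connexins in WT4 was 13.7%, against at most 1.05% in the other WT mice.

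In TG1 the share of *Gjb2* was 41.7%, against 78.8% to 92.8% in the other HSD17B1TG mice. In the same mouse the share of *Gja1* was 23.4% (2.95% to 8.63% in the others) and that of *Gja4* was 12.2% (0.755% to 3.91% in the others). The shares of 1 mouse add up to the whole, so these 3 are not independent. TG1 also had the lowest summed epithelial markers of its group, 987 FPKM against 2735 to 4589.8, and the highest summed smooth muscle markers, 7420 FPKM against 878 to 3121. The part of these in the shares was not tested. In WT5 the share of *Gjb1* was 10.3%, against 2.34% to 4.62% in the other WT mice.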

How the results depend on the processing

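No connexin was called in edgeR under any normalization or filter or with any mouse left out, and the log2 fold changes of all connexins but *Gjb6* kept their sign. *Gjb2*, at 1.88 to 2.89 with a mouse left out, was 1 connexin called up under limma's voom with quality weights (3.38, adjusted p = 0.0306). It was also 1 connexin called in DESeq2 with its filtering set for 0.05 (2.21, adjusted p = 0.0496), an alternative chosen after seeing the data, and not at the default filtering (adjusted p = 0.0519). *Gjb6* changed sign to 3.04 under voom with quality weights and to 0.68 under limma on log2(FPKM + 1). With each mouse left out its log2 fold change lay at -0.76 to 3.24, with signs changed without TG4, TG5 or WT4. Its share difference lay at -1.86 to 2.42 percentage points, with signs changed without TG3, TG4, TG5 or WT4. Its level against epithelium lay at -0.25 to 1.67, with signs changed without TG1 or WT3. The number of gene and compartment pairs that passed was 0 to 3, 3 of them without WT4. Over all genes, leaving out a mouse gave 38 to 888 called up and 27 to 666 called down, and leaving out any mouse but TG3 moved one or both counts by over 1.5 times. Calls up and down were 906 and 666 in DESeq2, 923 and 674 with its filtering set for 0.05, and 1083 and 665 in voom with quality weights. The adjusted p-value alone gave 568 up, and limma on log2(FPKM + 1) gave 228 down. The cause of these changes was not tested. The standard errors of the connexins, from 0.36 (*Gjc1*) to 1.41 (*Gjb6*), set the differences that could be told from 0 for each gene. No paired analysis was possible because the labels pair no mice.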

Other observations

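Of the markers outside the compartments used above, 3 genes were called. The arterial Notch ligand gene *Dll4* was higher in HSD17B1TG (log2 fold change 1.33, SE 0.24, edgeR adjusted p = 0.0219), at 11.8 ± 3.54 against 4.69 ± 0.993 FPKM, and its groups did not overlap. It was the only one called of 6 arterial genes, of which 3 had higher and 3 lower means. Of the connexins known from arteries, *Gja5* had a log2 fold change of 0.74 and *Gja4* one of -0.41, neither called. The keratin gene *Krt13* of squamous epithelium was higher by 4.30 (SE 1.06, edgeR adjusted p = 0.0426), at 9.46 ± 6.39 against 0.473 ± 0.459 FPKM. It was the only one called of 4 squamous genes tested out of 7, of which 3 had higher means and 1, *Trp63*, a lower one (-0.53, edgeR adjusted p = 0.577). *Laptm5*, a gene of the lysosomes of leucocytes, was higher by 1.28 (SE 0.28, edgeR adjusted p = 0.0312), at 39.6 ± 10.7 against 16.2 ± 5.50 FPKM, while 4 of the 5 leucocyte markers had lower means.

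Of the 5 gland markers 2 were tested and none was called. *Cxcl15* had a log2 fold change of -5.94 (SE 1.66, edgeR adjusted p = 0.0566) and *Foxa2* one of -0.23 (SE 0.64, edgeR adjusted p = 0.851). The summed gland list lay at 0.838 to 5.94 FPKM in HSD17B1TG and 2.05 to 81.0 in WT. WT4, with the highest *Gjb6* level, had the lowest gland sum of WT, and WT3, with 0 counts of *Gjb6*, the highest. Among mural genes 2 had higher and 3 lower means, among oviduct genes 2 of 3 tested had higher means, and of 4 adipocyte genes 1 was tested, none of them called.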
